A study of Mus musculus with 3 samples.

Results

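Fibroblast growth factors (Fgf), Wnt proteins and bone morphogenetic proteins (Bmp) were followed by source cell type and by genotype in whole mouse prostate. The members are the genes whose symbol reads Fgf, Wnt or Bmp followed directly by a digit and that had at least 10 unique molecular identifiers (UMIs, counted transcript molecules) summed over the 3 libraries. Of 54 symbols of that form, 49 passed, out of 32594 genes listed: 19 Fgf, 18 Wnt and 12 Bmp genes. Bmp10, the lowest inside the limit, had 11 UMIs, and Fgf6, the highest outside it, had 9. The members held 47012 UMIs in all, 16535 of them Fgf, 14458 Wnt and 16019 Bmp. The name takes in genes that are not secreted ligands. Bmp2k, with 3661 UMIs, encodes a kinase, Bmp1, with 889 UMIs, a metalloproteinase that trims procollagen, Fgf11 to Fgf14, with 2602 UMIs together, intracellular proteins that bind voltage-gated sodium channels, and Fgf2os, with 23 UMIs, an antisense RNA that overlaps Fgf2. Bmp8a and Bmp8b are near-identical paralogs, so their counts are uncertain.

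The 3 families carry signals between stroma and epithelium. Fgf ligands activate receptor tyrosine kinases, Wnt ligands bind Frizzled receptors with Lrp, Ror or Ryk co-receptors, and Bmp ligands act through serine/threonine kinase receptors and Smad proteins. In the prostate, stromal Fgf7 and Fgf10 are known as factors that epithelial cells respond to through Fgfr2, and Bmp4 as a brake on ductal budding of the developing mouse gland.

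Srd5a2 encodes a steroid 5α-reductase, which makes dihydrotestosterone from testosterone. Droplet single-cell RNA libraries were made from C57BL6 prostates of 12 to 15 weeks by the age label (the protocol gives 12 weeks): 1 library from Srd5a2 knockout tissue (Srd5a2-/-) and 2 from Srd5a2 heterozygous tissue (Srd5a2+/-), which carries an intact allele. No wild-type tissue was analysed here. Every tissue was held for 2 h at 37 °C in collagenase with a rock inhibitor and dihydrotestosterone, so transcripts were read after that exposure in the knockout and in the heterozygotes alike. With a lone knockout library there is no replicate error on the knockout side, the number of mice per library is not given in the sources used here, and p-values may measure technical spread only.

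The knockout library held 129015041 UMIs in 13273 barcodes, heterozygote 1 held 47601747 in 5000, and heterozygote 2 held 100801564 in 13866. The shallowest barcode held 586, 2466 and 500 UMIs in that order, so barcodes under 2466 UMIs are absent from heterozygote 1. With a minimum of 500 genes and no more than 15% of UMIs mitochondrial, 9983 knockout cells and 4718 and 10587 heterozygote cells were kept. Libraries shared between 8 and 28 cell barcodes in each pair. Classes are marker gates on raw UMIs, and cells that passed several gates (274 in the knockout, 180 and 155 in heterozygotes 1 and 2) were left out as possible doublets. Srd5a2 itself had 16 UMIs in the knockout cells, against 144 in heterozygote 1 and 177 in heterozygote 2. In fibroblasts it had 1 UMI in the knockout, against 25 and 39 UMIs in the heterozygotes, and in smooth muscle 2 UMIs, against 41 and 31. Whether the counted 3′ end lies inside the deleted part is not given in the sources used here. Seminal vesicle markers summed to 85616 UMIs per 1000000 in knockout fibroblasts, against 4738 and 18983 in fibroblasts of heterozygotes 1 and 2.

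Positions are printed where results turn on them: a neighbouring gene pair and the promoters of 3 members that were higher in the knockout. Coordinates are GENCODE vM21 on mm10. Wnt6 (chr1:74771892-74785322, plus strand) and Wnt10a (chr1:74791516-74804179, plus strand) are adjacent, with 6.19 kb between them. Bmp5 lies at chr9:75775364-75900310 and Fgf7 at chr2:126034658-126091185, each on the plus strand. RefSeq promoter windows (GRCm38.p6) were found for 37 of the 49 members. The 250 bases before the annotated start are given for the 3, 5′ to 3′, in lower case with each CG dinucleotide in capitals.
Bmp5 (chr9:75775115-75775364, plus strand): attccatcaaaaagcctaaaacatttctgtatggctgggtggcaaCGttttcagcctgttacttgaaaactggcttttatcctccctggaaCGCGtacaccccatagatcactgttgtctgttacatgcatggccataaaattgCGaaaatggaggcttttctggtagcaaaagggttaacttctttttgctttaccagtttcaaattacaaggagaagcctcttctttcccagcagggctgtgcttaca
Wnt6 (chr1:74771642-74771891, plus strand): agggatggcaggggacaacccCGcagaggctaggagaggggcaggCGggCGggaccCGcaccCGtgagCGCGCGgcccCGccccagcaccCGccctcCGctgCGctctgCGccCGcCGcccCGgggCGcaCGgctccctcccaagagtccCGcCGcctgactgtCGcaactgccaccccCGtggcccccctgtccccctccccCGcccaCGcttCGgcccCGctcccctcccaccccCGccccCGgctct
Fgf7 (chr2:126034408-126034657, plus strand): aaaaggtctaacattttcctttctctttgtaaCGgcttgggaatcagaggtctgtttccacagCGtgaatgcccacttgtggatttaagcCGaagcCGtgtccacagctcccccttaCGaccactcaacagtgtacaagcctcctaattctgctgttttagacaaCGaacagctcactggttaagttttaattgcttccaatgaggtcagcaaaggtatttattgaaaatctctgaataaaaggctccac
The Wnt6 window held 28 CG dinucleotides and 79.6% G or C, and 7.61% of all 32851 windows held as many CG. The Bmp5 window held 4 at 42.8% G or C, and the Fgf7 window 6 at 43.6%, beside medians of 6 CG and 52.4% over all windows. On both strands, none of these 3 windows held the androgen receptor hexamer AGAACA (in 16.1% of all windows), the TCF/LEF core CTTTGA (13.8%) or TATAAA (12.4%). None held the palindromic androgen response element, which contains that hexamer, or the palindromic estrogen response element, found in 0.00913% and 0.0639% of all windows. A missing match says only that the letters are not in these 250 bases.

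To find the source of each ligand, each class was compared with the mean of the other 8 classes in a fit with the library as a block, for 9 classes with at least 20 cells in each library. Of the 49 members, 31 had at least 100 UMIs and 25 passed the low-count filter of this fit. A member that passes only through a class where it is high had to differ, so the counts by class are descriptions. The leading class of a member was picked by its mean level in these same libraries, so its class difference is a description too. In fibroblasts 16 members were called higher, while 20% of all 12572 genes tested were. In smooth muscle 15 were called, against 28.5% of genes, and in basal cells 13, against 28.7%. Secretory luminal cells had 5 (36% of genes), ionocytes and blood endothelial cells 4 each (19.6% and 16.8%), and proximal luminal cells, macrophages and seminal vesicle-like cells 3 each (17.9%, 17.9% and 31% of genes). Levels below are CPM, the UMIs of a gene per 1000000 UMIs of the class in that library, in the order knockout, heterozygote 1, heterozygote 2. They are not scaled by transcript length, so levels are compared between classes and libraries, not between genes.

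**Figure D1:**
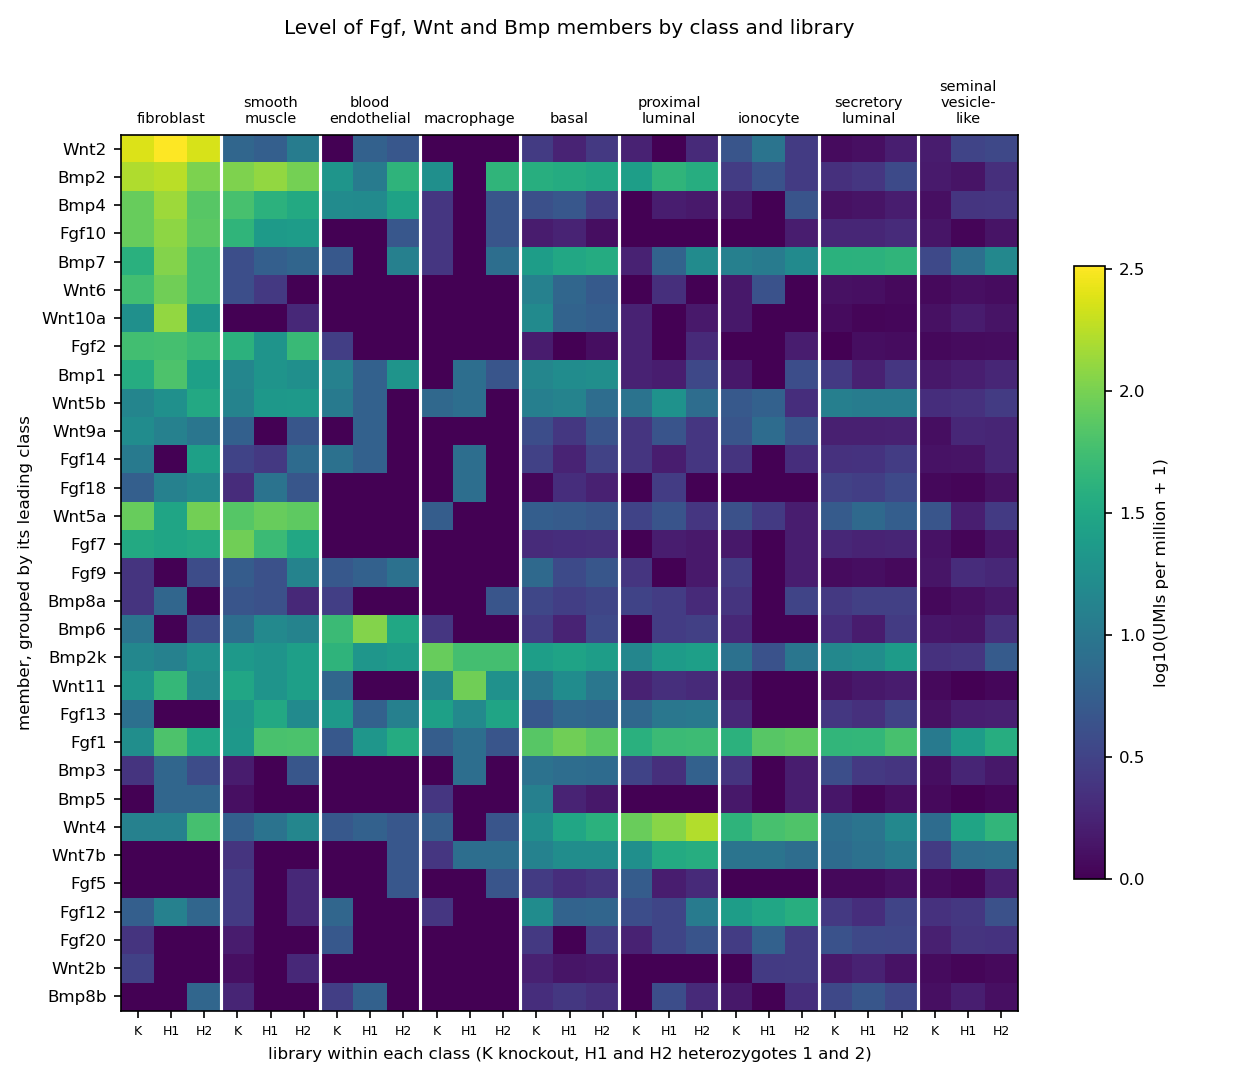
Level of the 31 members with at least 100 UMIs, as log10 of CPM plus 1, in each library (columns K, H1 and H2) of 9 cell classes. Rows are grouped by the class with the highest mean level. The upper rows are bright in fibroblasts and smooth muscle, while Wnt4, Wnt7b, Fgf1 and Fgf12 are bright in epithelial classes.

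Fibroblasts were the leading source of 13 of the 31 members. Wnt2, a ligand known from lung mesenchyme, had 241 CPM in the knockout, against 325 and 230 in the heterozygotes, and was 7.77 ± 0.26 higher (log2 ± SE) than the mean of the other classes. All 3 libraries were high, and the next class, smooth muscle, had a mean of 6.96. Wnt6 had 55.4 in the knockout, against 92.8 and 54.7, and its neighbour Wnt10a 17.1, against 128 and 20.1. Both act through β-catenin in skin and its appendages. Wnt10a was called at 7.09 ± 0.70, with heterozygote 1 standing apart on 22 UMIs in 54 cells. In the knockout its level in basal cells, 14.8, was close to that in fibroblasts, and the Poisson intervals overlapped. Fgf10 had 84.1 in the knockout, against 122 and 74.8 (6.64 ± 0.33), and Fgf2, a growth factor without a signal peptide, had 56.1, against 58.0 and 48.9 (6.6 ± 0.40). Each of these class differences was larger than the spread between libraries.

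Fibroblasts also led for Bmp4, Bmp2, Bmp7 and Bmp1. Bmp4 had 83.4 CPM in knockout fibroblasts, against 139 and 71.9 in the heterozygotes. Bmp2, which like Bmp4 signals through Smad proteins, had 161, against 180 and 104. Their class differences were 4.91 ± 0.31 and 3.45 ± 0.23 (log2). Smooth muscle came next for both, at means of 44.1 and 110 CPM, and was called too, at 4.10 ± 0.29 and 3.22 ± 0.20. Bmp7 had 38.3 in the knockout, against 110 and 54.7, and Bmp1 34.9, against 63.8 and 25.9. For Bmp7, secretory luminal cells came next at a mean of 40.8, and in the knockout fibroblasts were not above them. At lower counts, Wnt5b, Wnt9a, Fgf14 and Fgf18 were called at 1.23, 3.49, 2.68 and 4.34, on at most 23 UMIs in any library.

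Within the fibroblasts, cells were split by fixed marker sets for an adventitial side (Pi16, Dpp4), a C3 side and a Rorb side, none of which holds a member. On the Rorb side Wnt2 had 328 CPM in the knockout, against 403 in both heterozygotes. On the C3 side it had 120 in the knockout, against 177 and 105, and on the adventitial side 252, against 429 and 207. In the knockout and in heterozygote 2 the order of the 3 sides was the same, while in heterozygote 1 the adventitial side, with 16 cells, was the highest. Fgf10 was higher on the C3 side than on the Rorb side in all 3 libraries, with 120 on the C3 side of the knockout, against 177 and 168 in the heterozygotes, and 69.7 on the Rorb side of the knockout, against 118 and 37.5. No test was run on these subsets.

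Of the 9 classes, smooth muscle led for Fgf7 and Wnt5a. Fgf7, a ligand of epithelial Fgfr2, had 91.1 CPM in the knockout, against 51.2 and 31.0 in the heterozygotes. It was 7.09 ± 0.30 above the mean of the other classes. Fibroblasts came next, at a mean of 31.2, and were called too (5.76 ± 0.46). The lead of smooth muscle was widest in the knockout, and in heterozygote 2 smooth muscle was not above fibroblasts. Wnt5a, a ligand of Ror receptors, had 70.5, against 84.8 and 76.0, at 4.96 ± 0.39. Its level in fibroblasts was close, with a mean of 69.6 against 77.1 in smooth muscle. Fgf9, of the subfamily shared with Fgf20, had 4.39, against 3.20 and 12.2, at 3.08 ± 0.57, and rests on 16, 2 and 13 UMIs. Bmp8a also had its highest mean there, on 13, 2 and 1 UMIs, and was not tested.

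Blood endothelial cells were the leading source of Bmp6, known as an endothelial signal for iron balance in the liver. It had 50.3 CPM in the knockout, against 111 and 30.7 in the heterozygotes, at 4.94 ± 0.45, on 26, 22 and 8 UMIs. Smooth muscle came next, at a mean of 11.2. In macrophages Bmp2k had 83.4 in the knockout, against 57.0 and 57.1. Fgf13 had 25.8, against 14.2 and 28.6, on 17, 2 and 8 UMIs. Smooth muscle was level with macrophages for Fgf13, at a mean of 22.3 against 22.9, and was called too (2.49 ± 0.30). Wnt11, a ligand outside the β-catenin branch, had 13.7, against 92.6 and 17.9. Its macrophage value rests on heterozygote 1, where 9 of 41 cells held 13 UMIs, and smooth muscle was even across libraries at 29.6 in the knockout, against 19.2 and 25.3.

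Epithelial classes led for another set. Wnt4, needed for kidney and female duct formation, was highest in proximal luminal cells, at 86.3 CPM in the knockout, against 115 and 164 in the heterozygotes (2.92 ± 0.17). Wnt7b, an epithelial Wnt known from lung and kidney, had 16.8, against 33.1 and 36.0 (3.42 ± 0.32), with a mean of 14.8 in basal cells next. Fgf12 led in ionocytes, acid-transporting cells marked by Foxi1, with 24.1, against 30.0 and 36.4 (3.30 ± 0.33). A Fgf12 UMI was found in 33.3%, 32.7% and 33.6% of ionocytes, close in all 3 libraries. In blood endothelial cells it had 3 UMIs in the knockout and 0 in both heterozygotes.

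Basal cells led for Fgf1, Bmp3 and Bmp5, the last of which was too sparse for the class fit. The lead for Bmp5 came from the knockout, with 11.3 CPM in basal cells and 0 in fibroblasts, while fibroblasts were higher in both heterozygotes, on 1 and 2 UMIs. Fgf1, which binds every Fgf receptor, had 71.4 CPM in the knockout, against 92.1 and 74.8, and was 1.45 ± 0.18 above the mean of the other classes. It was also called in ionocytes, secretory luminal and seminal vesicle-like cells. Bmp3, a Bmp known to oppose other Bmps in bone, had 7.77, against 6.91 and 6.53 (3.07 ± 0.49), close in all 3 libraries. Wnt10a and Wnt6, led by fibroblasts, were also called in basal cells, at 4.91 and 4.01. Bmp7 was called in secretory luminal cells (2.09), where it had 39.0 in the knockout, against 40.6 and 42.8, so the 3 libraries were level. The remaining leading values were low: Bmp8b in secretory luminal cells, Fgf5 in proximal luminal cells, and Fgf20 and Wnt2b in ionocytes each had a mean of at most 2.88 CPM and were not tested.

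The knockout was then set against the heterozygotes within a class, for the 7 classes with at least 50 cells in each library, which leaves out ionocytes and macrophages. Over these classes 32 members passed the filter in at least 1, giving 112 tests and 10 calls in 9 genes, 6 higher and 4 lower. All calls lay in basal, smooth muscle and seminal vesicle-like cells. Adjusted p-values are from edgeR's quasi-likelihood test with Benjamini-Hochberg adjustment over all genes of a class. Differences are log2 of knockout over heterozygotes ± SE. Here and in the class fit, each SE was derived as the absolute difference divided by the square root of the test's F statistic. The test rests on 1 residual degree of freedom and borrows its spread across genes. DESeq2 on the same sums kept 3 of the 10 calls, Bmp5 in basal cells and Wnt5a and Wnt4 in seminal vesicle-like cells. In bulk sums of a class, more cells that express a gene and more RNA per cell cannot be told apart.

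**Figure D2:**
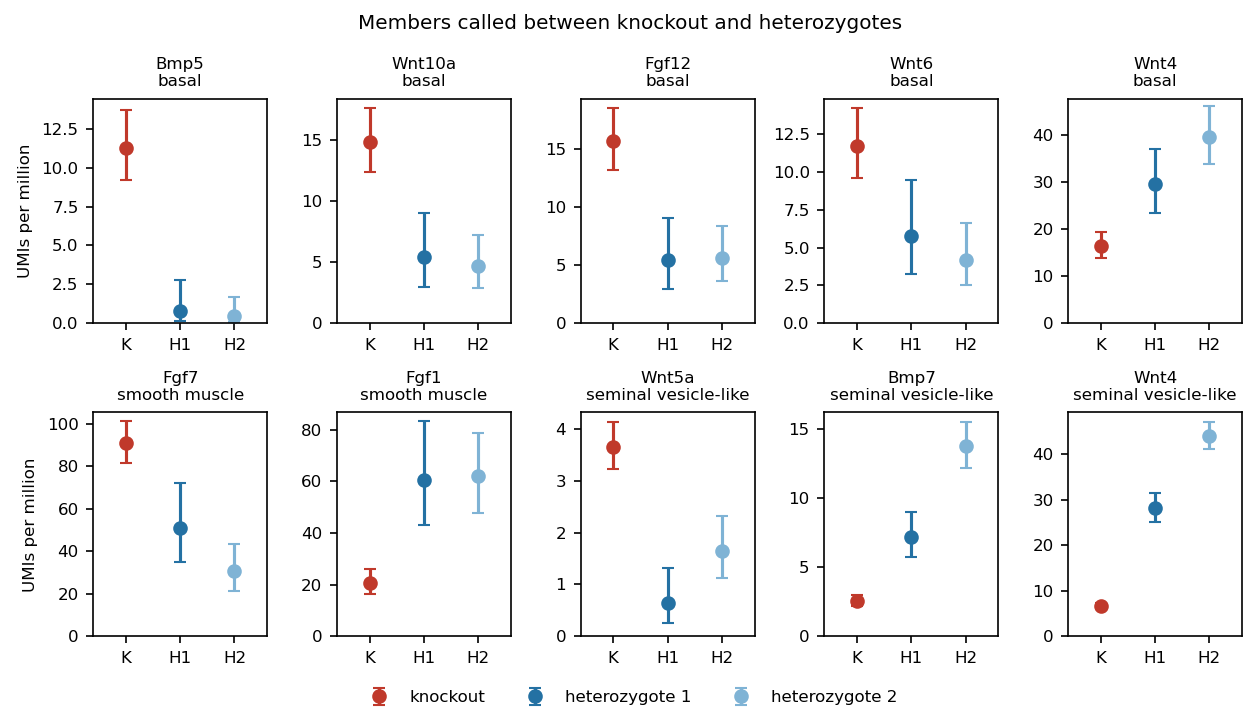
CPM of the 10 called pairs of member and class, in the knockout (K) and in heterozygotes 1 and 2 (H1, H2). Bars are exact Poisson 95% intervals, which cover counting error only. In every panel the knockout lies outside the range of the heterozygotes, and in the Bmp5 panel the heterozygotes are near 0.

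In basal cells 5 of 21 members tested were called, against 4.51% of 12067 genes. Of these 4 were higher, against 2.36% of genes, and 1 lower, against 2.15%. The median difference of the tested members was 0.26, and that of all genes -0.01. Bmp5, of the same subgroup as Bmp6 and Bmp7, had 99 UMIs in 1503 knockout basal cells, against 2 UMIs in 619 and 2 UMIs in 1011 basal cells of the heterozygotes. That is 11.3 CPM in the knockout, against 0.767 and 0.466. The ratio to the heterozygotes summed was 19.5, with an exact interval of 7.38 to 73.0 from the counts, and the fit gave 4.33 ± 0.59 (adjusted p = 1.7e-07). Against heterozygote 1 alone no fit was possible. The log2 difference of scaled CPM, with a small count added, was then 3.47, which is another measure than the fitted value. The UMIs were spread over 74 knockout cells, with at most 4 in a cell and 29 in the 10 highest cells. Knockout fibroblasts had 0 Bmp5 UMIs, which allows up to 2.05 CPM, against 1 and 2 UMIs in the heterozygotes.

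Wnt10a and Wnt6, the neighbours on chromosome 1, were both higher in knockout basal cells. Wnt10a had 130 UMIs there, against 14 and 20 in the heterozygotes, or 14.8 CPM, against 5.37 and 4.66 (1.69 ± 0.36, adjusted p = 9.3e-04). Wnt6 had 103 UMIs, against 15 and 18, or 11.8 CPM, against 5.75 and 4.19 (1.39 ± 0.38, adjusted p = 0.020). The Wnt6 call was lost in 6 of 9 tested alternatives. Of the 99 knockout cells with a Wnt10a UMI and the 87 with a Wnt6 UMI, 20 held both. None of the 74 cells with a Bmp5 UMI held a Wnt10a or Wnt6 UMI. Overlap was not particular to the neighbours. Of 103 knockout basal cells with a UMI of Fgf12, on chromosome 16, 17 held Wnt6, 10 Wnt10a and 3 Bmp5. These overlaps were not tested.

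Fgf12 had 137 UMIs in knockout basal cells, against 14 and 24 in the heterozygotes, or 15.6 CPM, against 5.37 and 5.59 (1.61 ± 0.34, adjusted p = 0.0010). In barcodes with under 500 genes, which can hold free RNA, Fgf12 had 10.8 CPM in the knockout and 4.48 in heterozygote 2, the same order as in basal cells. Its part in the difference was not tested. For Bmp5 those barcodes had 0.901 and 1.34 (2 and 3 UMIs), and for Wnt6, on fewer UMIs, 0.450 and 0.448. For Wnt10a they had 0 in both, which allows up to 1.35 and 1.34 CPM. Heterozygote 1 had only 2 barcodes under 500 genes, with 5253 UMIs in all, so no level is given for it here or below. Wnt4 was the member called lower, with 16.3 CPM in the knockout, against 29.5 and 39.6 in the heterozygotes (-0.99 ± 0.26, adjusted p = 0.011). The knockout lay under both heterozygotes, and its share of basal cells with a Wnt4 UMI was 7.85%, against 8.72% and 12.4%. The Wnt4 call was lost in 4 of 10 alternatives: DESeq2, the looser gate, the common UMI floor, and cells without a Clca3a2 or Tmem171 UMI. Barcodes under 500 genes had 5.85 CPM of Wnt4 in the knockout and 9.85 in heterozygote 2, the same order, and their part was not tested.

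The makeup of the basal class differed between libraries by one measure. A UMI of Clca3a2, a chloride channel accessory gene, or of Tmem171 was found in 391 of 1503 knockout basal cells, against 50 of 619 and 58 of 1011 in the heterozygotes. This split was chosen after the values were seen. Finding a UMI depends on depth, and median depth of basal cells was 4590 UMIs in the knockout, against 3319 and 3033. The part of depth in these shares was not tested. In basal cells with such a UMI, Wnt10a had 34.5 CPM in the knockout, against 31.5 and 28.5 in the heterozygotes, and was not called there (0.28, adjusted p = 0.95). Of 4 members tested there 1 was called, against 3.11% of genes. It was Wnt4 (-1.58, adjusted p = 0.033), with 21.5 CPM in the knockout, against 90.6 and 47.5. Bmp5, Fgf12 and Wnt6 were not tested in those cells, where Fgf12 had 29.1 in the knockout, against 3.94 and 22.2, and Wnt6 27.6, against 15.7 and 9.50. In cells without such a UMI, Bmp5 had 15.5 CPM in the knockout, against 0.850 and 0.503, and stayed called (4.65, adjusted p = 0.0072), while Wnt10a, Wnt6, Fgf12 and Wnt4 did not pass, at 1.38, 0.39, 1.16 and -1.05. Only 0.304% of genes were called in those cells. The smooth muscle list, with all 8 markers detected, summed to 362 CPM in knockout basal cells, against 123 and 151, and the 8 fibroblast markers to 830, against 1469 and 1221. Their part in these differences was not tested.

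**Figure D3:**
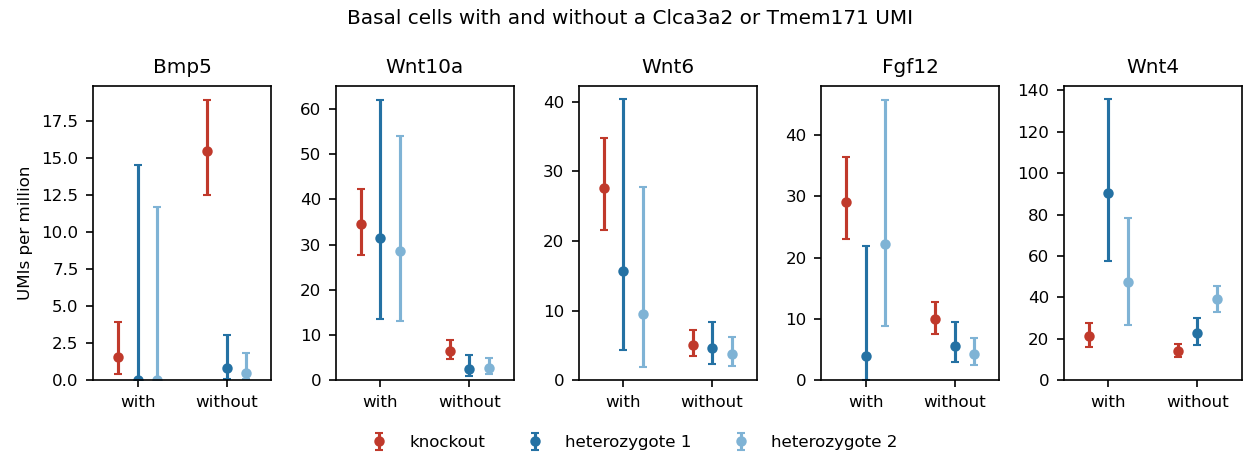
CPM of the 5 members called in basal cells, in cells with and without a Clca3a2 or Tmem171 UMI, for the knockout and heterozygotes 1 and 2 (left to right in each set). Bars are exact Poisson 95% intervals. Wnt10a is level between genotypes among cells with such a UMI, and Bmp5 is high in the knockout among cells without one.

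In smooth muscle 2 of 16 members were called, against 3.96% of 9223 genes (1 higher, against 1.63%, and 1 lower, against 2.33%), and the member median was -0.02 beside -0.01 for all genes. Fgf7 had 332 UMIs in 573 knockout cells, against 32 in 129 and 33 in 201 cells of the heterozygotes. The level of 91.1 CPM in the knockout, against 51.2 and 31.0, gave a difference of 1.35 ± 0.29 (adjusted p = 2.3e-04). A Fgf7 UMI was found in 30.9% of knockout cells, against 17.1% and 11.9%, at median depths of 6067, 4171 and 4434 UMIs per cell. The knockout was above both heterozygotes, and the call held in 7 of 8 alternatives and was lost in DESeq2 (adjusted p = 0.81). In fibroblasts Fgf7 was level, with 32.8 in the knockout, against 29.0 and 31.7. The stromal ligands next in size missed the threshold. Fgf10 had 43.4 in knockout smooth muscle, against 22.4 and 23.5 (1.05 ± 0.35, adjusted p = 0.061), and Bmp4 59.6, against 40.0 and 32.9 (0.87 ± 0.31, adjusted p = 0.088).

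Fgf1 was lower in knockout smooth muscle, with 20.9 CPM in the knockout, against 60.8 and 62.0 in the heterozygotes (-1.41 ± 0.33, adjusted p = 0.0013). DESeq2 did not call it (adjusted p = 0.73). Fgf1 was led by basal cells. Barcodes under 500 genes had 21.6 CPM in the knockout and 21.9 in heterozygote 2, so the knockout level in smooth muscle was close to that of these barcodes and the level of heterozygote 2 above it. Their part in the difference was not tested. In blood endothelial cells Fgf1 had 2 UMIs in the knockout, against 4 and 9. On plain totals the knockout was under both heterozygotes in 8 of the 8 classes with at least 10 Fgf1 UMIs, and passed the test in smooth muscle. On TMM-scaled totals this did not hold in basal cells, with 75.5 in the knockout, against 89.3 and 73.8. The share of all genes with the knockout under both in as many classes was not counted. Differences between classes were not tested. Epithelial markers in smooth muscle summed to 499 CPM in the knockout, against 419 and 743.

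**Figure D4:**
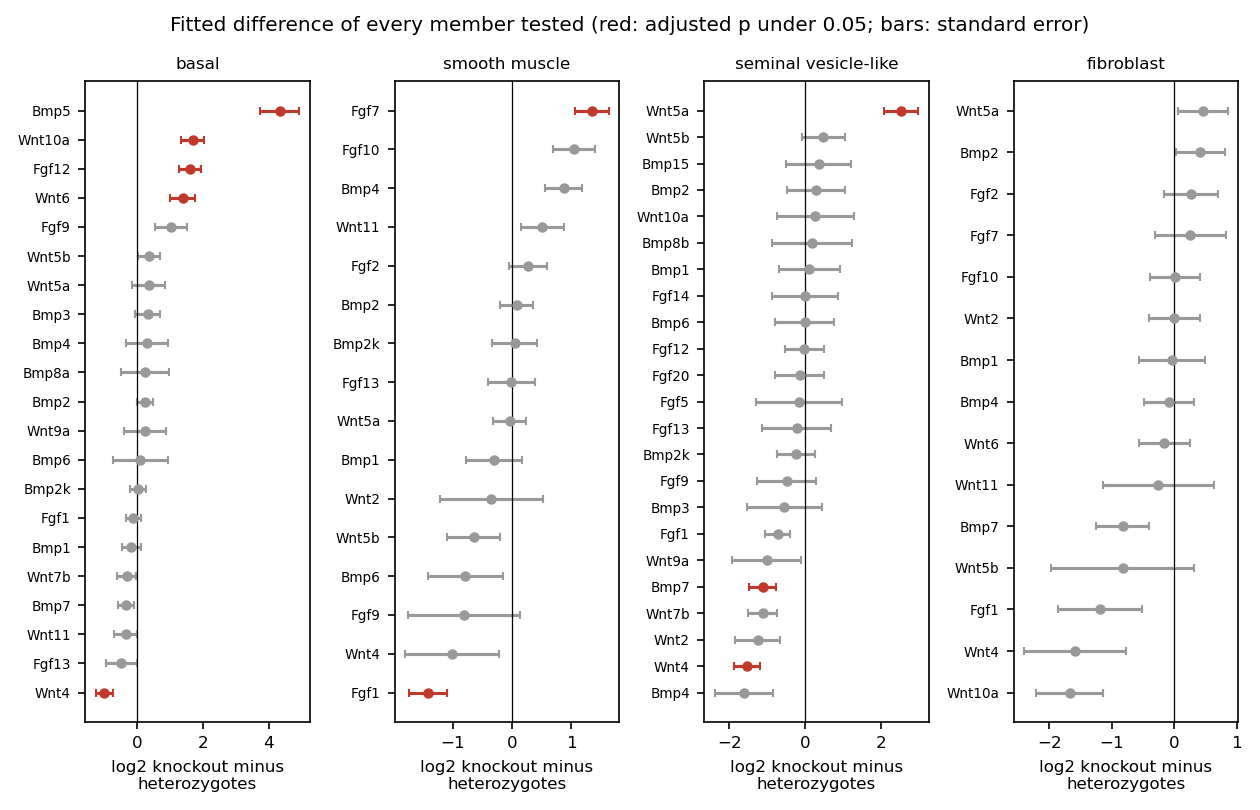
Fitted log2 difference, knockout minus heterozygotes, of every member tested in basal, smooth muscle, seminal vesicle-like and fibroblast cells, with standard errors. Red points have an adjusted p under 0.05 over all genes of the class. The fibroblast panel has no red point, and Bmp5 in basal cells lies farthest from 0.

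Cells gated on seminal vesicle secretory genes made up 2613 knockout cells, against 646 and 1034 heterozygote cells. In them 3 of 23 members were called, against 4.94% of 13689 genes (1 higher, against 2.72%, and 2 lower, against 2.22%), with a member median of -0.16 and -0.02 for all genes. Wnt5a had 257 UMIs in the knockout, against 7 and 32 in the heterozygotes. That is 3.65 CPM, against 0.640 and 1.65, and the fit gave 2.52 ± 0.46 (adjusted p = 3.5e-06). The fit used TMM-scaled totals, which in this class raised the knockout and lowered the heterozygotes, so 2.52 exceeds what the plain levels give. Against heterozygote 1 alone, the log2 difference of scaled CPM, with a small count added, was 3.13. Wnt5a was found in 7.92% of knockout cells, against 1.08% and 2.71%. In blood endothelial cells it had 0 UMIs in all 3 libraries, where 0 of 134 knockout cells allows up to 2.24% of cells with a UMI. Median depth there was 3398 UMIs in the knockout, against 14552 in its seminal vesicle-like cells, so this sets no limit on cells that express the gene. Barcodes under 500 genes had 8.11 CPM in the knockout and 4.48 in heterozygote 2, above the levels in seminal vesicle-like cells, and their part in the difference was not tested. Fibroblast markers summed to 11.9 CPM in these knockout cells, against 10.2 and 27.9. Smooth muscle, not fibroblasts, led for Wnt5a, and the part of smooth muscle RNA in the difference was not tested.

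Wnt4 and Bmp7 were lower in knockout seminal vesicle-like cells. Wnt4 had 6.67 CPM in the knockout, against 28.1 and 44.0, and 10.1, against 24.7 and 33.1, on TMM-scaled totals (-1.52 ± 0.34, adjusted p = 4.6e-04). Bmp7 had 2.58, against 7.22 and 13.8, and 3.91, against 6.35 and 10.4, on scaled totals (-1.11 ± 0.36, adjusted p = 0.041). The Bmp7 call was lost in 7 of 10 alternatives, DESeq2 and both other gates among them. Barcodes under 500 genes ran in the same order, with 7.66 CPM of Bmp7 in the knockout and 14.3 in heterozygote 2, and 5.85 and 9.85 of Wnt4. Their part was not tested. The 9 seminal vesicle markers summed to 713210 CPM in the knockout, against 556319 and 517747. Within the class, 2026 of 2613 knockout cells had at least 3000 CPM on Sva, Ceacam10, Svs3a and Svs3b, against 16 of 646 and 19 of 1034. With only the other cells, 0 of the members tested were called: Wnt5a stood at 1.53 (adjusted p = 0.30), Wnt4 at -0.76 (adjusted p = 0.44) and Bmp7 at -0.66 (adjusted p = 0.73), and 1.66% of genes were called. With the same cells as in the main fit and the 9 markers left out of the totals, all 3 passed, against 4.84% of genes. TMM scaling already limits the weight of such extreme genes, so this outcome was largely fixed in advance and leaves the makeup of the class as it was.

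No member was called in fibroblasts (15 tested, 1.46% of genes called), proximal luminal (9, 1.85%), blood endothelial (3, 0.961%) or secretory luminal cells (25, 1.52%) by edgeR or DESeq2. Split by direction, genes called higher made up 0.61%, 1.23%, 0.44% and 0.59% of those tested in these classes, and genes called lower 0.854%, 0.623%, 0.52% and 0.932%. At an unadjusted p under 0.05 edgeR had 1 of 15 members in fibroblasts (488 of 6556 genes), 1 of 9 in proximal luminal cells (1043 of 10115), 0 of 3 in blood endothelial cells (332 of 4996) and 1 of 25 in secretory luminal cells (1161 of 16095). DESeq2 had 0 members in each. Wnt10a in fibroblasts came nearest (-1.67 ± 0.54, adjusted p = 0.098), with a difference of -2.46 against heterozygote 1 and -0.10 against heterozygote 2. In fibroblasts Wnt2, Fgf10, Bmp4 and Fgf2 differed by 0.00 ± 0.41, 0.01 ± 0.40, -0.08 ± 0.40 and 0.27 ± 0.43. With 54 cells in heterozygote 1, a single UMI there stands for 5.80 CPM. Bmp7 in proximal luminal cells had 1 UMI in the knockout, against 9 and 31 (-3.45 ± 1.23, adjusted p = 0.22), on 81 knockout cells. Wnt4 and Bmp7 each lay under both heterozygotes on plain totals in 6 of the 7 classes with at least 10 of their UMIs. The share of all genes for which this holds was not counted, so it is a description. Scaled totals can change such an order, as for Fgf1 in basal cells.

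Genes that receive or shape these signals were taken as 81 genes in 8 lists. In basal cells 3 of 58 tested were called, all higher, which is near the background of 4.51%. They were Dkk3, related to the Dickkopf Wnt inhibitors (12.3 TMM-scaled CPM in the knockout, against 4.84 and 4.60; 1.39 ± 0.38), Fstl1, a secreted Bmp-binding protein (29.6, against 14.9 and 18.2; 0.82 ± 0.25), and Id2, a helix-loop-helix inhibitor induced by Bmp signals (166, against 99.7 and 89.9; 0.81 ± 0.22). Adjusted p-values were 0.019, 0.043 and 0.020. In basal cells without a Clca3a2 or Tmem171 UMI none of the 3 passed, and Fstl1 was at -0.17.

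In smooth muscle 2 of 59 pathway genes were called, both lower, near the background of 3.96% of genes called and 2.33% lower. Wif1, a secreted protein that binds and blocks Wnts, had 433 TMM-scaled CPM in the knockout, against 2037 and 1432 in the heterozygotes (-2.0 ± 0.34, adjusted p = 8.9e-07). Both heterozygotes were above the knockout and the call held in 8 of 8 alternatives, DESeq2 included. Lgr5, an R-spondin receptor, had 18.2, against 71.3 and 17.2 (-1.17 ± 0.36, adjusted p = 0.037), so only heterozygote 1 was high, and the sign turned without it. In fibroblasts Wif1 had 573 CPM on plain totals in the knockout, against 1183 and 1235, and was not called there.

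Seminal vesicle-like cells had 5 of 63 pathway genes called, against 4.94% of all genes. Nkd1, a feedback inhibitor of Wnt signals, had 20.7 scaled CPM in the knockout, against 6.91 and 8.21 (1.45 ± 0.31, adjusted p = 1.9e-04). Id1 and Id3, also Bmp-induced, had 72.0 and 166, against 40.9 and 26.3 for Id1 and 91.7 and 56.9 for Id3, and were higher by 1.10 ± 0.33 and 1.16 ± 0.34 (adjusted p = 0.019 and 0.017). Etv5, an ETS factor induced by Fgf signals, had 3.22, against 7.64 and 12.1 (-1.63 ± 0.36, adjusted p = 4.2e-04). Wif1 was called lower (-1.34 ± 0.43, adjusted p = 0.043) on 1.76, against 0.965 and 7.51, so the knockout lay between the heterozygotes. In cells low in Sva and Ceacam10 none of the 5 passed, and Id1 and Id3 changed sign, at -0.12 and -0.47. The other 4 classes had 0 calls among 45 fibroblast, 46 proximal luminal, 27 blood endothelial and 67 secretory luminal pathway genes tested, and DESeq2 gave 0 there too. In smooth muscle DESeq2 kept Wif1 and in seminal vesicle-like cells Nkd1.

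**Figure D5:**
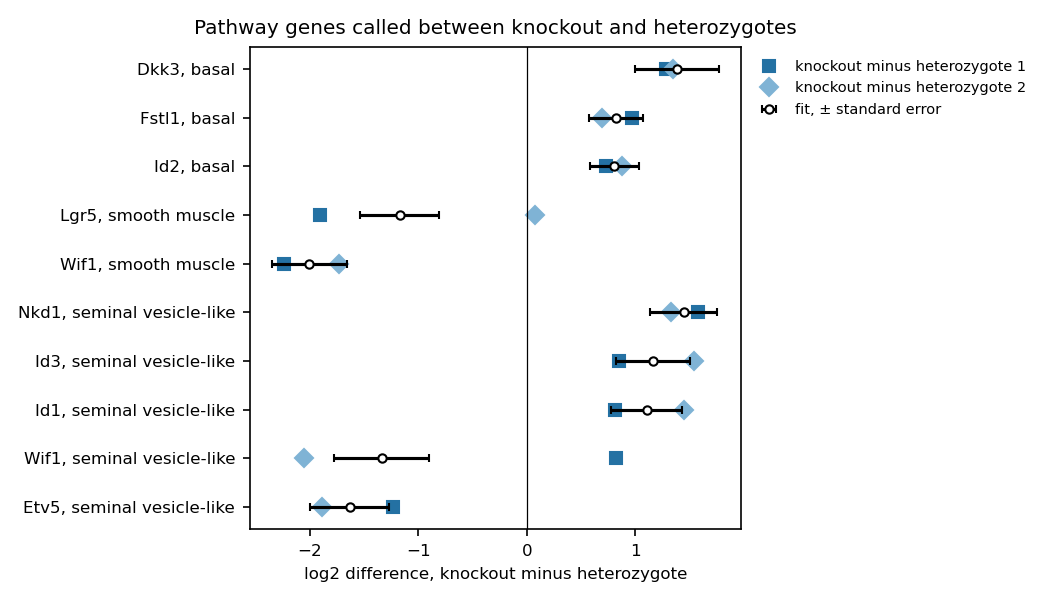
Log2 difference of the 10 called pairs of pathway gene and class: squares and diamonds are the knockout against heterozygotes 1 and 2, circles the fit with its standard error. Lgr5 in smooth muscle and Wif1 in seminal vesicle-like cells have the heterozygotes on opposite sides of 0.

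The other 18 members had between 11 and 89 UMIs over the 3 libraries. Fgf11 had the most, and smooth muscle led for it among the 9 classes, at a mean of 5.21 CPM. Fgf21, a circulating metabolic factor, showed what such counts can rest on: its 12 UMIs in knockout fibroblasts came from 3 cells, 10 of them from a single cell, against 0 UMIs in the fibroblasts of both heterozygotes. Wnt1 had 22 UMIs in 17 of 4904 secretory luminal cells of heterozygote 2, against 2 UMIs in the knockout and 0 in heterozygote 1. Fgf2os overlaps the start of Fgf2 on the opposite strand, and how strand was used in counting is not given in the sources used here. Of these 18 members, Bmp15 in seminal vesicle-like cells was the one that passed the low-count filter of a knockout fit (0.35 ± 0.86, adjusted p = 0.98), and the others were not tested.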

How the data were processed

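For each of 3 libraries the authors deposited a matrix of unnormalized UMI counts. The submitters' processing notes name Cell Ranger (3.1.0) and the mm10 build. How the authors called barcodes as cells is not given in the sources used here. The 49 members, gene lists and classes were chosen with earlier results of these data known. Gates were set on markers alone: a cell needed several markers of a class and a minimum share of its UMIs, with upper or lower limits on epithelial markers. No doublet caller was run, and cells passing several gates were left out. UMIs were summed per class and library and tested by quasi-likelihood in edgeR 4.0.16 (R 4.3.3) after TMM scaling and the filterByExpr filter, with p-values adjusted over all genes of a fit (Benjamini-Hochberg, threshold 0.05), for the knockout against the heterozygotes with at least 50 cells per library and for classes with at least 20. DESeq2 1.42.0 was an alternative. Both fits were tested on simulated data. Levels are counts per 1000000 UMIs of plain totals (CPM), with exact Poisson 95% intervals, which cover counting error only. A count of 0 was given the limit that 3 UMIs allow. Members with at least 100 UMIs were named with values in their leading class, as were members and pathway genes called in a knockout fit. Fgf10 and Bmp4 in smooth muscle, Wnt10a and other uncalled values in fibroblasts, Fgf21 and Wnt1 were named after their values were seen, as were the basal and seminal vesicle-like splits. Python 3.11.15, pandas 2.3.3 and matplotlib 3.10.9 were used. Settings tried were median ratio scaling, DESeq2, no low-count filter, stricter and looser gates, a common floor of 2466 UMIs per cell, at most 10% mitochondrial UMIs, the 5% of cells with the most UMIs left out, and each library left out.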

Additional observations from a re-analysis of the deposited data

Results flagged for a closer look

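Wnt10a was called higher in knockout basal cells (1.69) and lay under both heterozygotes in fibroblasts, at -1.67 in the fit, with -2.46 against heterozygote 1 and -0.10 against heterozygote 2. Wnt5a was called higher in knockout seminal vesicle-like cells (2.52) and lay under both heterozygotes in smooth muscle, at -0.037, and in secretory luminal cells, at -0.31, neither called. These pairs are listed by the sign of the knockout against each heterozygote alone. The values in fibroblasts, smooth muscle and secretory luminal cells did not pass the test, those of Wnt5a lie within 1 SE of 0 (0.27 and 0.39), and the differences between classes were not tested.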

How the results depend on the processing

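No paired analysis was possible because the groups share a single replicate number, given in accession order, and the labels name no pairs. For the class comparisons the library block was left out as an alternative, and no count of members moved by over 1.5 times without it. Basal members called were then 12, against 13 with it. For members in their leading class, 284 alternative values kept their direction and side of the threshold and 5 fell short of it (Fgf14 with the common UMI floor, Wnt5b in 3 settings, Wnt9a without the knockout). The leading class was picked by its mean level in these same libraries, so this agreement was largely fixed in advance and is a description. Of the alternative values of the knockout comparison, 169 stayed on their side, 64 fell short of the threshold, 5 reversed, 9 untested values without a heterozygote moved by more than 1 SE, and 1 passed newly (Bmp4 in smooth muscle without the cells of most UMIs).

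For the knockout, basal members called numbered 1 in DESeq2, 3 with the common UMI floor, 3 with the looser gate, and 1 each in basal cells with and without a Clca3a2 or Tmem171 UMI, against 5. Smooth muscle had 0 in DESeq2, and seminal vesicle-like cells 0 without the Sva-high cells. Fibroblasts had 1 with the looser gate and proximal luminal cells 1 with no low-count filter. Higher than other classes, proximal luminal and seminal vesicle-like cells each had 5 with no filter. Leaving out 1 library, blood endothelial cells ranged from 2 to 4 members, against 4 (2 without the knockout) and secretory luminal cells from 3 to 4, against 5 with all libraries (3 without heterozygote 1). Pathway genes called in basal cells numbered 1 with median ratio scaling, the stricter gate and cells with a Clca3a2 or Tmem171 UMI, and 0 in DESeq2, with the UMI floor and without those cells. In seminal vesicle-like cells they numbered 1 in DESeq2, 2 with the looser gate, without the cells of most UMIs and with no filter, and 0 without the Sva-high cells. Smooth muscle had 1 in DESeq2, fibroblasts 1 and proximal luminal cells 1 at 10% mitochondrial UMIs, proximal luminal cells 6 with the looser gate (where 429 of all 10671 genes were called higher and 383 lower, against 124 and 63 of 10115), and secretory luminal cells 1 with no filter. Fstl1 reversed in basal cells without Clca3a2 or Tmem171 (-0.17), Id1 and Id3 in seminal vesicle-like cells low in Sva (-0.12 and -0.47), Lgr5 without heterozygote 1 and Wif1 in seminal vesicle-like cells without heterozygote 2. Leaving out a heterozygote, Lgr5 ranged from -1.93 to 0.069 and Wif1 from -2.09 to 0.81. With a heterozygote left out no residual degree of freedom is left and no fit is possible. Those are log2 differences of scaled CPM, with a small count added, and have no test. The cause was not tested. The splits by Clca3a2, Tmem171 and Sva, and totals without seminal vesicle markers, were added after the data were seen. Among the 9 classes, summed UMIs were lowest in fibroblasts, blood endothelial cells and macrophages of heterozygote 1, which held 54, 51 and 41 cells. Median depth in these classes was lowest in heterozygote 2, at 1834, 2385 and 2637.5 UMIs per cell.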
